A study of Zea mays with 112 samples.

Results

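The loci described here are places in the maize genome where a peak of the transcription factor (TF) MRP1 fell together with a peak of at least 1 of NRP1, EREB108 and MYBR19. They were selected on the peaks themselves. The summits of all ampDAP-seq peak lists of the series were sorted, neighbours within 100 bp of each other were chained into a locus, and an MRP1 locus was kept when it held a peak of 1 of the 3 partners and fewer than 30 TFs in all. The rule kept 8764 loci of the 62002 MRP1 loci with fewer than 30 TFs, out of 3252868 loci of that size and 3256404 loci in all. A further 505 MRP1 loci with a partner held 30 TFs or more and were left out. At the edge of the rule, 50 loci held 28 TFs and 54 held 29, while just outside it 46 held 30 and 55 held 31.

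Every list came from the same DNA, so the lists differ in the TF and in the sequencing library. Genomic DNA was taken from leaves of the inbred line B73 labelled 14 DAG and amplified by PCR, which removes chromatin and DNA methylation. Each TF was made with a HaloTag in wheat germ extract, held on beads and mixed with that DNA, and the control for peak calling was the empty HaloTag vector. Each TF had a single list and no labelled repeat, so no value has a replicate error. The file of NRP1 is marked as merged, from what is not stated. The sites are those that naked DNA allows in a tube. They say nothing of occupancy in endosperm cells.

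MRP1 is a MYB-related TF known as a master regulator of the basal endosperm transfer layer, the cells with ingrown walls that carry maternal sugars and amino acids into the maize kernel. It is known to bind short TATC-containing repeats in the promoters of transfer cell genes. MYBR19 carries the MYB-related name as well, EREB108 belongs to the ERF family, whose members are known for binding GCC-rich boxes, and NRP1 is a NAC TF. The study lists all 4 TFs in a module linked to transfer cells, but it also ties targets of NRP1 to storage protein genes. The peak lists hold no expression, so the label could not be checked with cell markers, and the loci are called MRP1 loci with a partner below.

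The motifs that the study lists for these TFs show how alike their preferred words are, and they are printed 5′ to 3′ on the strand that shares the longest run with MYBR19. Capitals mark that shared run, and for MYBR19 itself its own fixed letters. Letters of mixed identity are written as n.

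MRP1: cTATCtctaaaatg
MYBR19: nnnCTTATCCAnnnn
MYBR13: ctatcCTTATCt
MYBR33: ccaTATCCAcaa
MYBR81: TCCAcaaaaca
NRP1: acgcaATCn
EREB108: ggcngCCgccgg

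MRP1 and MYBR19 shared a run of 4 letters. MYBR33 and MYBR13, MYB-related TFs that recur in the loci, each shared 6 letters with MYBR19. The EREB108 motif shared only 2 letters with that of MYBR19 and 1 with that of MRP1, and all 11 of its fixed letters were G or C, against 4 of 14 for MRP1. The motifs of MYBR19 and MYBR13 were found by the study in a search against known motifs, and the others without one.

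MYBR19 was the partner that met MRP1 most often, NRP1 followed, and EREB108 was nearly absent from MRP1 loci. A peak of any of the 3 was in 14.1% of MRP1 loci (Wilson 95% interval 13.9% to 14.4%, which like all intervals here covers counting error only), against 8.59% of all loci of that size. MYBR19 was in 5807 MRP1 loci, or 9.37%, against 0.487% of all loci. NRP1 was in 3198, or 5.16%, against 5.02% of all loci. EREB108 was in 61, or 0.0984%, against 3.21% of all loci. These counts are descriptions, because peaks of the same lists chose the loci.

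The 7 possible combinations were far from even. MYBR19 as the sole partner made up 5515 loci, or 62.9% of the members, and NRP1 as the sole partner 2909, or 33.2%. NRP1 with MYBR19 was in 279 loci, EREB108 alone in 39, EREB108 with MYBR19 in 12, and NRP1 with EREB108 in 9. A single locus held all 4 TFs.

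To count meetings at other positions, the MRP1 list was moved along the genome and the loci were rebuilt. There were 10 fixed moves of between 10 and 200 kb in either direction. A move does not keep the number of TFs around the MRP1 peaks, so these counts are not matched for crowding. The moved lists gave 2447 to 2621 loci with a partner, with a median of 2534.5. MYBR19 as the sole partner was found in 152 to 201 loci after a move, against 5515 in place. NRP1 as the sole partner was found in 1316 to 1419, against 2909 in place. EREB108 went the other way, with 877 to 1001 loci after a move and 39 in place. The pair NRP1 and MYBR19 had 20 to 34 loci after a move against 279 in place, and NRP1 with EREB108 had 20 to 41 against 9. EREB108 with MYBR19, the exception among the EREB108 combinations of 1 or 2 partners, had 2 to 8 after a move against 12 in place. For all 4 TFs the moved lists gave 0 to 3 loci, a range that holds the 1 locus in place.

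**Figure D1:**
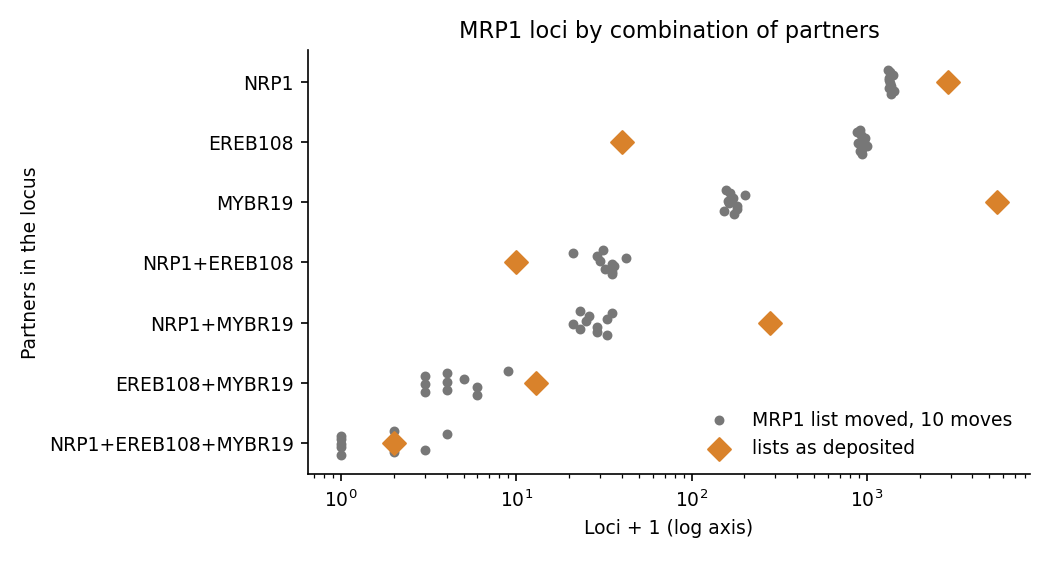
Number of MRP1 loci by combination of partners, on a log axis after adding 1. Diamonds are the lists as deposited and grey points the 10 moves of the MRP1 list. The diamond of MYBR19 stands at 5515 loci against at most 201 after a move, while that of EREB108 stands at 39 against at least 877.

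The number of other TFs in a locus changed the picture for NRP1 and not the direction for the other partners. Counting only the TFs outside the rule, NRP1 was in 1.32% of MRP1 loci with 2 to 3 such TFs, against 4.32% of loci without MRP1 of the same size. With 12 to 28 such TFs it was in 33.2% of MRP1 loci, against 16.3% without MRP1. NRP1 thus met MRP1 less often than other loci of its size where few TFs were called and more often where many were. MYBR19 was in 11.8% of MRP1 loci with 2 to 3 other TFs against 0.143% without MRP1, and in 26.1% against 6.86% with 12 to 28. EREB108 was in 0.0369% against 1.54% and in 0.780% against 17% in the same size classes.

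Set among all other TFs, MYBR19 had the highest ratio of its share in MRP1 loci to its share in all loci, at 19.2. MYBR81, a MYB-related TF with a list of 150153 peaks, came next with a ratio of 12.4 and was in 54.7% of MRP1 loci. MYBR13 had a ratio of 7.87 and was in 44%, and MYBR33 had 5.98 and was in 7.10%. The 7 MYBR TFs had a median ratio of 5.98, the 13 NACTF TFs 2.55, the 20 WRKY TFs 1.02 and the 17 EREB TFs 0.0470. NRP1 stood at rank 61 with a ratio of 1.03, and EREB108 had a ratio of 0.0306, the fourth lowest.

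Read from the side of MYBR19, MRP1 was not the TF whose loci held it most. MYBR19 was in 31.3% of the loci of ZAG2, a MADS-box TF, and in 25.6% of those of ZIM34, and MRP1 ranked 20. For NRP1, the loci of NACTF11 held it most often, at 72.4%, and MRP1 ranked 54. For EREB108, the loci of EREB200 held it most often, at 64.8%, and MRP1 ranked 105.

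The file names of most lists carry an identifier whose meaning is not stated. The first 5 digits of that of MRP1 are shared by MYBR81, MYBR13 and MYBR33. Leaving out the 3 partners, the 12 TFs with these digits had a mean log2 ratio of sharing with MRP1 of 0.66 ± 1.90 (SD), and the other 92 had -0.13 ± 2.12. The difference of 0.78 did not pass a two-sided permutation test over TFs (p = 0.221). For the 3 MYBR TFs that share the digits, whatever the digits stand for and the name stem cannot be told apart. MYBR19 carries other digits than MRP1, and NRP1 has no identifier in its file name.

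The distance between summits separated the partners sharply. GEM, the caller of the peaks, places a binding event together with the sequence words enriched around it, so summits can fall at the same base of every copy of a site. The nearest summit of MYBR19 lay within 20 bp of the MRP1 summit in 4194 of 5807 loci (72.2%), with a median distance of 6 bp. In 3808 loci, or 65.6%, the distance was exactly 6 bp, and only 43 loci had both summits on the same base. The next distance, 38 bp, was found in 199 loci. MYBR19 lay at the higher coordinate in 1905 of the 3808 loci and at the lower in 1903.

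NRP1 had summits farther from MRP1, with a median of 92 bp and 11.2% within 20 bp. Single distances stood out here too. NRP1 lay exactly 92 bp from MRP1 in 744 of 3198 loci (23.3%) and exactly 227 bp away in 340 (10.6%), then 19 bp away in 199 and 44 bp away in 107. In 40.4% of the NRP1 loci the summits were more than 100 bp apart, joined only through summits of other TFs between them. The 61 EREB108 loci had a median of 138 bp, no single distance in more than 2 loci, 4 loci within 20 bp, and 59.0% over 100 bp.

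MYBR81, which is no part of the rule, showed the same kind of spacing. Its summit lay 1 bp from that of MRP1 in 9883 of 33885 shared loci (29.2%) and 45 bp away in 4201 (12.4%). MYBR13 lay 3 bp away in 6546 of 27263 loci (24%), and MYBR33 on the same base in 408 of 4400 (9.27%). MADS53, a MADS-box TF set beside them for comparison, had no single distance of that weight. Its commonest, 61 bp, was found in 56 of 2792 loci (2.01%), followed by 245 bp in 43.

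**Figure D2:**
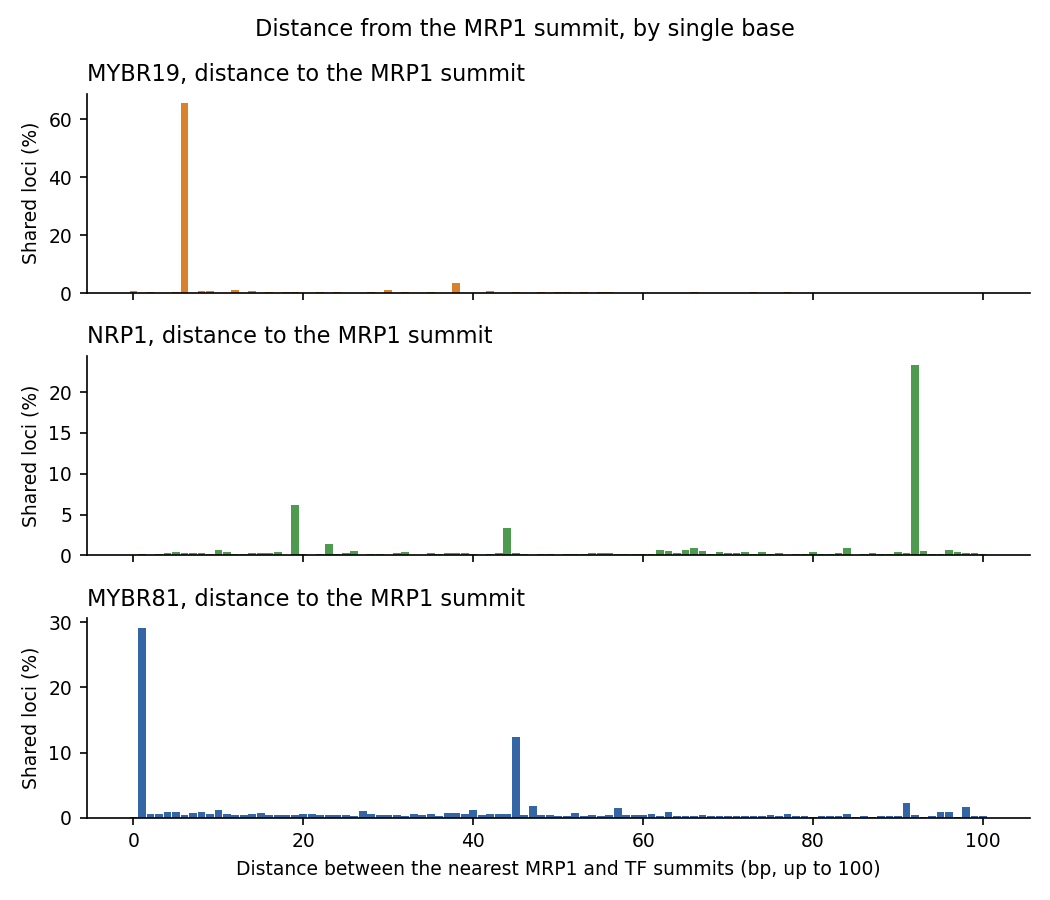
Share of shared loci by the distance between the nearest MRP1 and TF summits, in single bases from 0 to 100 bp, for MYBR19, NRP1 and MYBR81. Each panel is carried by 1 or 2 single-base bars, at 6 bp for MYBR19 (65.6%), at 92 bp for NRP1 (23.3%) and at 1 and 45 bp for MYBR81 (29.2% and 12.4%). Larger distances, such as the 227 bp of NRP1, are not drawn.

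The fixed distances went beyond the pair of TFs. For the loci with MYBR19 at 6 bp, the offset of every other summit from MRP1 was taken with the side of MYBR19 as positive. MYBR81 was at exactly +45 bp in 1984 of the 3808 loci (52.1%). GLK44, a TF with a GLK name, was at -76 bp in 1261 (33.1%), and 90.6% of the loci where GLK44 had a summit within 300 bp had it at that base. NACTF77 was at +209 bp in 630 loci, NACTF61 at the same base in 376, BHLH156 at +296 bp in 460, and ZmOrphan110 at -41 bp in 310. These 6 TFs met a rule set after the offsets were seen, namely presence in 10% or more of the loci with 50% or more of those at 1 offset. At least 1 of them was at its offset in 2268 loci, 39.1% of all MRP1 loci with MYBR19.

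The arrangement was seldom complete, with 1 of the 6 TFs at its offset in 736 loci, 2 in 843, and 3 or more in 689. These 2268 loci were spread over chromosomes 1 to 10, with 155 to 352 on each, and their neighbours lay a median of 525 kb apart. Only 31 neighbours lay within 10 kb of each other. The DNA of the loci was not read here, so whether they share a longer sequence was not tested.

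A different arrangement accompanied NRP1 at 92 bp. Within 300 bp of MRP1 in these 744 loci, NACTF109 had a summit in 98.1%, NACTF6 in 97.6%, NACTF5 in 97.4% and NACTF49 in 97.3%. NACTF6 was at +67 bp in 652 loci (87.6%), NACTF2 at +103 bp in 536 (72.0%), NACTF49 at +96 bp in 535 (71.9%) and NACTF29 at +102 bp in 532 (71.5%). HB91 and OCL5A, homeobox TFs, were both at +50 bp, in 463 and 397 loci. Farther out, PBF1, a DOF TF known from its action on zein storage protein genes, was at +285 bp in 15.9% of the loci, and DOF36 at +283 bp in 15.1%. Of the 744 loci, 718 held 3 or more of the 13 TFs that met the same rule at their offsets, and 53 to 105 of the 744 lay on each of chromosomes 1 to 10. Of the 8 NACTF TFs among those 13, 7 lay on the NRP1 side of MRP1, and NACTF77, at -84 bp, lay on the other.

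Where NRP1 lay elsewhere within 100 bp of MRP1, offsets were less often repeated. In these 1162 loci NACTF2 was present in 54.1% and its commonest offset held 6.54% of the loci, and MYBR81 was present in 54.8% with 14.2% at its commonest offset. They held a median of 10 TFs, against 15 where NRP1 was at 92 bp.

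**Figure D3:**
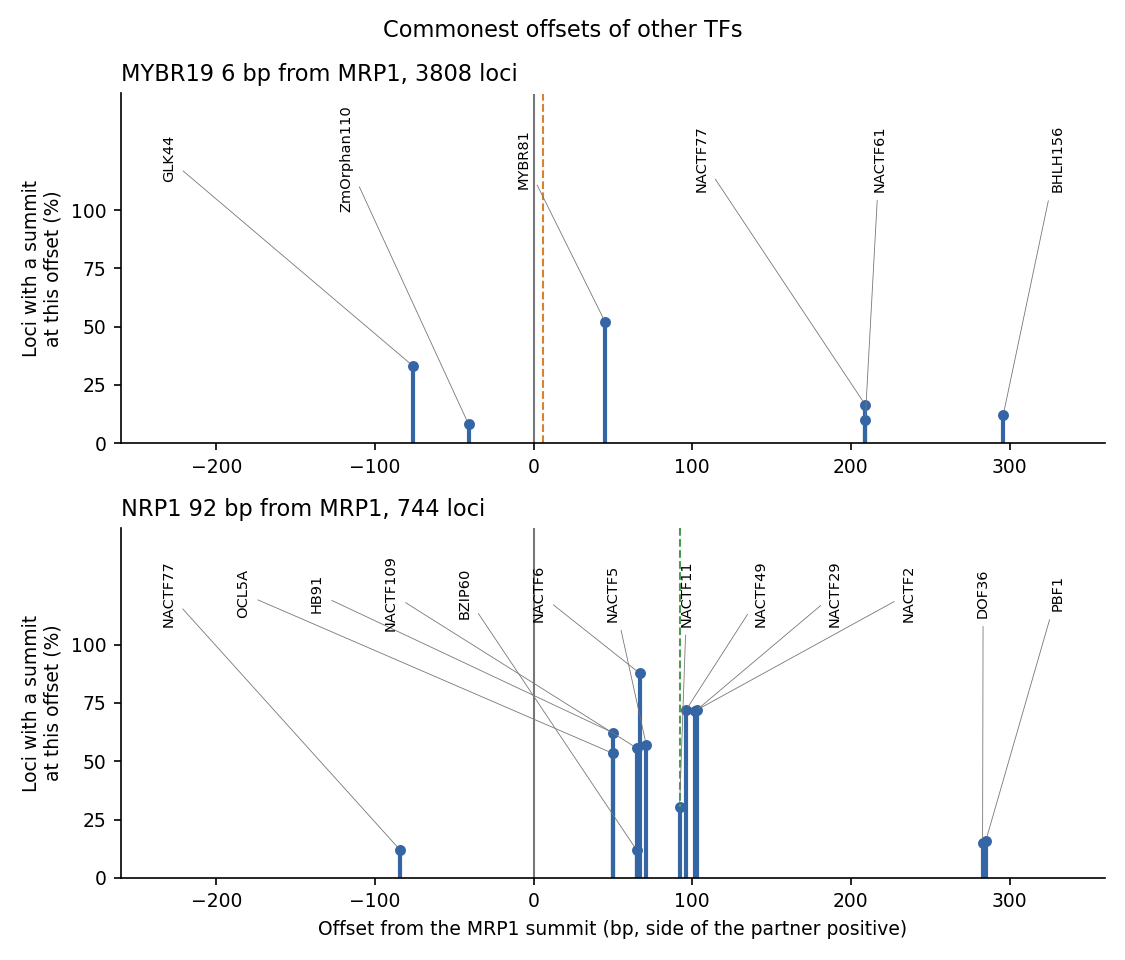
Commonest offset from the MRP1 summit for the TFs that recur at 1 base, in loci with MYBR19 at 6 bp (top, 3808 loci) and NRP1 at 92 bp (bottom, 744 loci). The height is the share of loci with a summit at exactly that offset, the solid line marks MRP1 and the dashed line the partner. MYBR81 reaches 52.1% at +45 bp in the upper panel and NACTF6 87.6% at +67 bp in the lower one.

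The strength of the MRP1 peak went with MYBR19 and hardly with the other partners. A locus was scored by its strongest MRP1 peak, as a percentile of the signal in the MRP1 list, where 100 is the strongest. This score favours loci with 2 or more MRP1 peaks. They made up 14.0% of loci with a partner, 15.8% with MYBR19 as sole partner and 3.03% with no partner. Of the loci with a partner, 52.3% had MRP1 in the top 25% of its list, against 24.6% of all MRP1 loci and 20.02% of those with no partner. MYBR19 as the sole partner came with a median percentile of 90.2 (quartiles 65.7 and 96.8), a median signal of 67 and 68.4% in the top 25%. NRP1 as the sole partner came with a median of 53.8 (29.9 and 74.6), a signal of 31.6 and 24.2% in the top 25%. Loci with no partner had a median of 46.3 (22.4 and 70.1) and a signal of 29.4, and those with MRP1 alone a median of 36.6. For EREB108, with or without another partner, the median over 61 loci was 57.2. With 1 list per TF these are differences between loci of 1 library, and no test over loci was made.

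The 279 loci with both NRP1 and MYBR19 had a median MRP1 percentile of 61, below that of loci with MYBR19 as sole partner. They were also crowded, with a median of 20 TFs against 6. At 12 to 28 TFs outside the rule, loci with MYBR19 as sole partner had a median of 67.6 (947 loci). The 279 loci were not split by crowding, so its part in that gap was not tested. The difference by MYBR19 was seen in each class of crowding. With 2 to 3 TFs outside the rule, 84.2% of the loci with MYBR19 as sole partner had MRP1 in the top 25%, against 27% without a partner and 11.1% with NRP1. With 12 to 28 such TFs the shares were 41.9%, 30.4% and 34.3%, so the classes moved toward each other. Where MYBR19 was the only other TF (88 loci), the median percentile was 46.3, against 36.6 for MRP1 alone.

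MYBR81 went with MRP1 strength as well. Loci with both MYBR19 and MYBR81 had a median MRP1 percentile of 92.2 (4924 loci), those with MYBR81 and no MYBR19 55.3 (28961 loci), those with MYBR19 and no MYBR81 48.5 (883 loci), and those with neither 36.6 (27234 loci). In number, however, the loci with MYBR81 and no MYBR19 made up more of the MRP1 loci in the top 25%, 8165 of 15240, than those with both, 3697.

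Within the MYBR19 loci, MRP1 strength also differed with the repeated arrangement. Where MYBR19 was at 6 bp and none of the 6 recurrent TFs was at its offset, the median MRP1 percentile was 78.9 (1540 loci). It was 93.7 with 1 of them in place (736 loci), 95.6 with 2 (843 loci) and 97.6 with 3 or more (689 loci). Where MYBR19 lay at another distance it was 67.6 (1999 loci). Without the 2268 loci of the arrangement, 37.2% of the remaining 6496 members had MRP1 in the top 25% instead of 52.3%, a check chosen after the data were seen. That share was above the 20.02% of loci with no partner.

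The MYBR81 and GLK44 part of the arrangement was also searched for without asking for a MYBR19 peak. Their offsets had been taken from the loci with MYBR19 at 6 bp, so the share with MYBR19 was not independent of that choice. No share with MYBR19 at other spacings of MYBR81 and GLK44 was set beside it. MYBR81 at 45 bp and GLK44 at 76 bp on opposite sides of the same MRP1 summit occurred in 1896 loci, and 1141 of these (60.2%) held MYBR19, in 1132 cases at 6 bp. The 755 loci without MYBR19 had a median MRP1 percentile of 89.2, against 96.3 with MYBR19. MRP1 peaks were thus strong at these loci also where the short MYBR19 list of 19456 peaks had none.

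**Figure D4:**
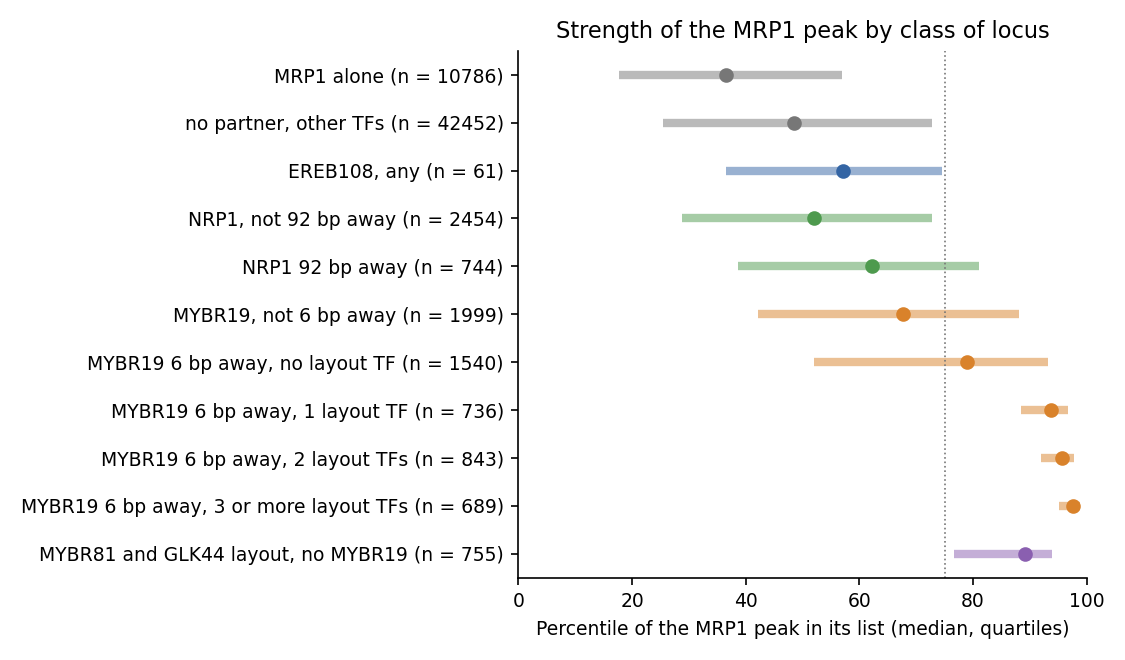
Percentile of the strongest MRP1 peak of a locus in the MRP1 list, by class of locus. Points are medians, bars run from the lower to the upper quartile, and the dotted line marks the top 25%. Medians rise from 36.6 for MRP1 alone to 97.6 for loci with MYBR19 at 6 bp and 3 or more recurrent TFs at their offsets, while the NRP1 classes stay at 52 and 62.2.

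The MRP1 list was divided into 10 classes by percentile, with the weakest peaks in class 1. The share of loci with MYBR19 rose from 2.49% in class 1 to 7.63% in class 8, 13% in class 9 and 46.8% in class 10. In class 10, 30.9% of the 6006 loci were in the repeated arrangement and 15.9% held MYBR19 outside it. Of the 100 loci with the strongest MRP1 peaks, 83 held MYBR19 and 98 held MYBR81, but only 27 were in the arrangement. NRP1 rose more gently, from 3.86% in class 1 to 7.02% in class 9, and was lower in class 10, at 2.98%. EREB108 lay between 0.0328% and 0.161% in every class, on at most 10 loci.

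**Figure D5:**
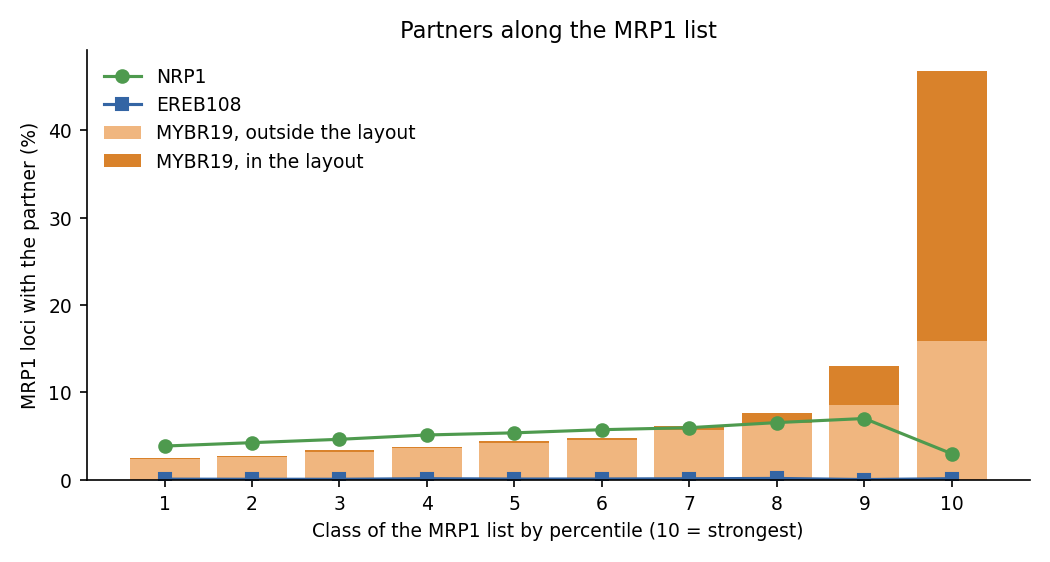
Share of MRP1 loci that hold each partner, by class of the MRP1 list from the weakest (1) to the strongest (10). Bars split MYBR19 into loci inside and outside the repeated arrangement, and lines show NRP1 and EREB108. In class 10 MYBR19 reaches 46.8%, of which 30.9 points lie in the arrangement, while NRP1 falls to 2.98%.

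The peaks of the partners were stronger too where MRP1 was present, except those of EREB108. The median percentile of MYBR19 in its own list was 63.4 with MRP1 (5807 loci) and 37.7 without (10039 loci), and 39.5 without MRP1 at loci with at least 1 other TF. MRP1 was in 18.9% of the loci in class 1 of the MYBR19 list and in 83.4% of those in class 10. The same comparison gave 69.8 against 49.8 for NRP1 (3198 and 160242 loci), and 56.5 without MRP1 at loci with at least 1 other TF. These NRP1 groups held medians of 13, 4 and 5 TFs, so they are not matched for crowding. With MRP1, the NRP1 median was 86.3 in the 744 loci with NRP1 at 92 bp and 61.3 in the other 2454. For EREB108 the comparison gave 22.1 with MRP1 (61 loci) against 49.7 without (104410 loci), so its few shared peaks were weak ones. Across the 5807 shared loci the percentiles of MRP1 and MYBR19 had a Spearman rho of 0.54, given as a description because the loci share 2 libraries and many of them a layout.

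Strength and distance went together for MYBR19. The median MRP1 percentile was 92.7 where the MYBR19 summit was 6 to 20 bp away, 89.9 at 21 to 50 bp, 65.7 at 51 to 100 bp and 58.3 farther out. Loci with the summits 0 to 5 bp apart had 64.6, on 117 loci. From 6 bp outward these MYBR19 classes held medians of 6, 8, 10 and 15 TFs, and the class at 0 to 5 bp held 11. The classes are therefore not matched for crowding. For NRP1 the MRP1 medians stayed between 44.6 and 56.6 over the same classes, but the NRP1 peak itself was strongest at 51 to 100 bp, the class of the 92 bp distance, with a median percentile of 79.1.

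The loci with a partner were crowded, with a median of 9 TFs (quartiles 5 and 14) against 3 at other MRP1 loci, which a rule that asks for a further TF favours. NRP1 as sole partner came with a median of 13 TFs, MYBR19 with 6. Only 141 loci held none but TFs of the rule.

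The TFs found most often in the loci were MYBR81 (78.8%) and MYBR13 (67.7%), followed by NACTF2 (29.1%), MYBR33 (25.2%), BZIP60 (24.4%), NACTF109 (22.5%), GLK44 (22.2%), NACTF49 (22.1%), NACTF5 (20.2%) and HB91 (20.1%). Part of this is crowding, so each share was set against MRP1 loci with no partner and the same number of TFs outside the rule. By that measure MYBR81 and MYBR13 had ratios of 1.20 and 1.17, and MADS53 1.01. The highest ratios were those of NACTF11 (44.4), EREB211 (14.9, on 8 loci), NACTF29 (10.2), DBF1 (5.15) and NACTF126 (4.94). The compared loci lack every partner by the rule, which raises the ratios of TFs that often meet one. NRP1 was in 72.4% of the loci of NACTF11 and 68.7% of those of NACTF29. The lowest were those of WRKY67 (0.0789), WRKY2 (0.0984), WRKY50 (0.0987), WRKY8 (0.108) and WRKY37 (0.113).

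The company differed by partner. With NRP1 as sole partner, 90.7% of the loci held another NAC TF of the NACTF stem, against 18.7% of loci with no partner. The mean number of these 13 TFs was 5.14 against 0.42, in loci of a median of 13 and 3 TFs, so the 2 are not matched for crowding. NACTF2 was in 67.1% of them, NACTF29 in 55.9% and NACTF11 in 33.1%, and their ratios to loci of the same size were 5.75, 18.2 and 86.3. Those compared loci hold no partner by the rule, which raises the ratios of TFs that often meet one. With MYBR19 as sole partner, 96.0% held another MYBR TF, against 63.6% of loci with no partner, and the mean number of the 6 was 2.12 against 1.07, again unmatched for crowding. There MYBR33 was in 31.2% (ratio 2.76), GLK44 in 31.3% (2.00), BHLH156 in 20.3% (2.35) and DBF1 in 4.32% (12.3). With EREB108, EREB150 was in 27 of the 61 loci and EREB54 in 24, the latter with a ratio of 71.6 to loci that lack EREB108 by the rule.

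MYBR19 kept other company where MRP1 was absent. At its 5807 loci with MRP1, MYBR81 was in 84.8% and MYBR13 in 74.4%, against 13.1% and 16.8% at its 10039 loci without. MADS53 went the other way, with 18.3% against 44.5%, and so did MYBR33, with 33.1% against 50.6%. NACTF11, the TF whose loci held NRP1 most often, was in 31.7% of NRP1 loci with MRP1 and 32.2% of those without. NACTF2 was in 67.2% against 29.1% of them, and NACTF29 in 53.75% against 33.98%. The MYBR19 loci held a median of 7 TFs with MRP1 and 10 without, and the NRP1 loci 13 and 4. None of these shares is therefore matched for crowding, and its part in them was not tested.

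Member loci lay on all chromosomes at 3.80 to 4.44 per Mb on chromosomes 1 to 10, and made up 13.2% to 14.9% of the MRP1 loci of each. The outer 25% of the chromosomes, taken equally from both ends, held 31.1% of them (30.1% to 32.1%), against 26.3% of other MRP1 loci and 24.7% of all loci. No annotation of the genome build used, B73 v4, was at hand, so the genes beside the loci are not given.

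A few loci show these classes at single places, in 1-based B73 v4 coordinates. The only locus with all 4 TFs, chr8:84878011-84878570, held 17 TFs, and its MRP1 peak was a weak one, with a signal of 27.6 at percentile 38.9. Its MYBR19 and EREB108 peaks were weak as well, at percentiles 24.4 and 10.7, and NRP1 stood at 73.9. The strongest MYBR19 locus by the lower of its ranks, chr1:125194982-125195573, had an MRP1 signal of 588.5 and a MYBR19 signal of 177.5, both above percentile 99.8, with the nearest summits 42 bp apart and 28 TFs in all. The next, chr6:67279412-67280064, had the same 42 bp, an MRP1 signal of 342.7 and 23 TFs.

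For NRP1, the locus at chr2:14764377-14765109 had an MRP1 signal of 118.6 and an NRP1 signal of 275 at the 92 bp distance, and 9 of its 19 TFs were of the NACTF stem. The locus at chr6:117209745-117210373 had an NRP1 signal of 204.1 and an MRP1 signal of 105.2, with the nearest summits 227 bp apart. The best EREB108 locus, chr7:146414728-146415322, had an MRP1 signal of 41 and an EREB108 signal of 209.1, with the nearest summits 310 bp apart. The next, chr8:165885633-165886291, had 38 and 139.2 at 417 bp. Of the 54 loci tied at 29 TFs, the one with the highest MRP1 rank was chr8:39453848-39454575. It had an MRP1 signal of 82.3, and its nearest MRP1 and MYBR19 summits were 6 bp apart.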

How the data were processed

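Peak lists of all TFs in the series were analysed, 1 per TF, with groups taken from the labels. The study's processing trimmed reads with Trimmomatic 0.39. Reads were then aligned to B73 v4 with Bowtie2 2.4.1, freed of duplicates with Picard and called with GEM against the empty HaloTag library. The file names of NRP1 and NACTF2 say merged, with no statement of which data went in. The authors deposited for each peak an interval of 201 bp, a score that was not used, the caller's signal, and −log10 values of p and q, the latter at 3 or above and capped at 999. The signal carries no stated scaling across libraries, so it was used only as a percentile within a list. Read depth is unknown, and the length of a list depends on it.

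Summits were chained at 100 bp with Python 3.11.15, numpy 2.4.6 and pandas 2.3.3. Each summit was taken as column 2 plus 100. Intervals are Wilson intervals of 95% (scipy 1.17.1). Distances and offsets are exact, with no tolerance. The permutation test over TFs used 100000 resamples. Code was tested on simulated data with planted combinations. Alternatives were other chaining distances, thresholds, ceilings, partner sets and windows. No columns of other series were present (0). The loci, lists and rules were chosen with earlier results of these data known, and the arrangements of recurrent TFs were defined after their offsets were seen. Loci were named by fixed rules: the locus with all 4 TFs, 2 per single partner by the lower rank of the 2 TFs, and the one with the most TFs. TFs were named by share (10) and by ratio (5 highest and 5 lowest), and those in the layouts, combinations and order of sharing after their values were seen. A planned reading of the DNA at the loci was not run, since no genome of the build was at hand.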

Additional observations from a re-analysis of the deposited data

How the results depend on the processing

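The number of MRP1 loci with a partner stayed within 1.5 times of 8764 under 9 of 14 alternatives. It fell to 1069 with a −log10 q of 10 or more in every list, to 1486 with the 5000 strongest peaks of each list, to 3249 without MYBR19 as a partner, to 4547 with a partner summit within 20 bp, and to 5767 without the loci of both repeated arrangements. The MRP1 loci under the ceiling fell as well, to 8736 at the stricter q and 4699 with the 5000 strongest peaks. The share of MRP1 loci with a partner was 12.2% and 31.6% at these 2 settings. Over the 14 alternatives that share ran from 5.24% to 31.6%, and it left its interval under 12 of them. The share of members with MRP1 in the top 25% of its list was 52.3%. It stayed within its interval on chromosomes 1 to 10 only and without EREB108. It rose to 57.2% under 15 TFs, 57.9% in 200 bp windows, 58.8% with chaining at 50 bp, 60.6% at the stricter q, 66.3% without NRP1 and 71.1% with a partner summit within 20 bp. It was 50.9% with no ceiling, 49.5% with the 5000 strongest peaks and 46.2% with chaining at 200 bp. Without MYBR19 as a partner it was 24.9%, close to the 24.6% of all MRP1 loci. Without the arrangement of MYBR19 it was 37.2% and without both 37.6%, checks chosen after the data were seen. Percentiles were taken anew within shortened lists. The share of MYBR19 summits within 20 bp lay between 68.3% and 79.6%. That of NRP1 lay between 0% (18 loci, 5000 strongest peaks) and 20.8% (1764 loci, chaining at 50 bp). That of EREB108 lay between 0% (1 locus, stricter q) and 16% (25 loci, chaining at 50 bp). The difference by the identifier digits of the file names was 0.05 without the MYBR stem (two-sided permutation p = 0.983), also chosen later. No paired analysis was possible because each TF has 1 list and no replicate numbers. The counts depend on list length and on unknown depth, a shared locus does not show joint binding, and the labels name no repeat of any list.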

Other observations

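Among TFs with 100 or more loci shared with MRP1, the MRP1 peak was strongest beside DBF1, a TF of the AP2 group, with a median percentile of 98.2 over 323 loci, then beside WRKY8 (93.2, 463 loci), MYBR19 (89.1, 5807 loci), WRKY2 (88.5, 1280 loci) and WRKY32 (87.7, 1536 loci). WRKY79, WRKY67 and WRKY37 followed at 84.4, 84.1 and 81.5. These WRKY TFs were rare where MRP1 had a partner. WRKY67, for example, was in 0.685% of those loci, against 8.68% of MRP1 loci with no partner and the same number of TFs outside the rule. Over the 20 WRKY TFs the median ran from 44.6 beside WRKY71 to 93.2 beside WRKY8, against 49.8 over all MRP1 loci. Strong MRP1 peaks thus also lay beside some WRKY TFs that were rare where MRP1 had a partner. Whether these TFs met at the same loci was not looked at. The distances between these WRKY summits and those of MRP1 were not looked at either.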
